A study of Rattus norvegicus with 18 samples.

Results

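The 10 genes described here encode transcription factors of the AP-1 and EGR families: Fos, Fosb, Fosl1, Fosl2, Jun, Junb, Jund, Atf3, Egr1 and Egr2. They were chosen by symbol, as a list of AP-1 subunits and immediate early factors, and all 10 of them were found among the 17307 symbols counted in astrocytes and the 17327 counted in microglia. All 10 were also among the 11690 astrocyte genes and 10837 microglia genes that held enough reads to be tested. The cells were primary astrocytes and primary microglia from the cortex of wild-type (WT) Sprague Dawley rat pups on postnatal day 2, grown from mixed glial cultures. Each cell type was sequenced as an untreated control, after treatment with Aβ42 fibrils and after treatment with Aβ40 fibrils, with 3 libraries in each of the 6 groups. Aβ42 and Aβ40 are the amyloid-β peptides of 42 and 40 residues, and the fibrils were given at 25 µM for 24 h. Per the study's methods, the cells, controls included, were first kept in serum-free medium for 3 h. No source says whether the 3 libraries of a group came from separate cultures or animals, so the p-values measure the spread between these libraries, which may be technical.

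AP-1 is a pair of proteins held together by a leucine zipper, usually 1 of the Fos family (Fos, Fosb, Fosl1, Fosl2) with 1 of the Jun family (Jun, Junb, Jund), which binds DNA next to genes of growth, matrix breakdown and inflammation. Atf3 is a related zipper protein of stress responses, and Egr1 and Egr2 are zinc finger factors that bind GC-rich sites. Most of these genes are immediate early genes: their mRNA appears within minutes of a stimulus, through MAP kinases and factors already present in the cell, and is short-lived, whereas Fosl1, Fosl2, Junb and Jund mRNA can stay high in cells under lasting stimulation. A single time point of 24 h therefore shows the late level of these mRNAs, not their first peak.

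The libraries held 3674043 to 19013919 counts on genes in astrocytes and 2271834 to 22274367 in microglia, and the members held 6 to 9404 counts in a library. Levels are given as scaled CPM, the counts of a gene relative to the depth of its library after correction for library composition, and they were compared within a gene and not between genes, since transcripts differ in length. Summed markers of astrocytes were 9060 to 11040 CPM in untreated astrocytes and 255 to 290 CPM in untreated microglia, and summed markers of microglia were 8234 to 9471 CPM in untreated microglia and 438 to 529 CPM in untreated astrocytes, with no marker of either list at 0 in the untreated libraries of its own cell type. Summed oligodendrocyte lineage markers were 1725 to 2573 CPM in untreated astrocytes and 1963 to 2167 CPM in untreated microglia. Neuron markers were 412 to 495 and 228 to 245 CPM. With Aβ42 in astrocytes, astrocyte markers were 5837 to 6053 CPM, oligodendrocyte lineage markers 1272 to 1372 CPM and neuron markers 222 to 233 CPM. With Aβ42 in microglia, oligodendrocyte lineage markers were 2180 to 2833 CPM and neuron markers 337 to 375 CPM. In astrocytes, control replicate 2 stood apart, with a mean correlation of 0.949 to the other controls where the others had 0.969 and 0.967. In microglia, the library labelled Aβ42 replicate 1 correlated less with the other Aβ42 libraries (0.964) than with the Aβ40 libraries (0.983). Calls and values that changed markedly without these libraries are given beside the results. The libraries were singled out after seeing the data, so the adjusted p-values without them are descriptions and not independent tests.

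**Figure D1:**
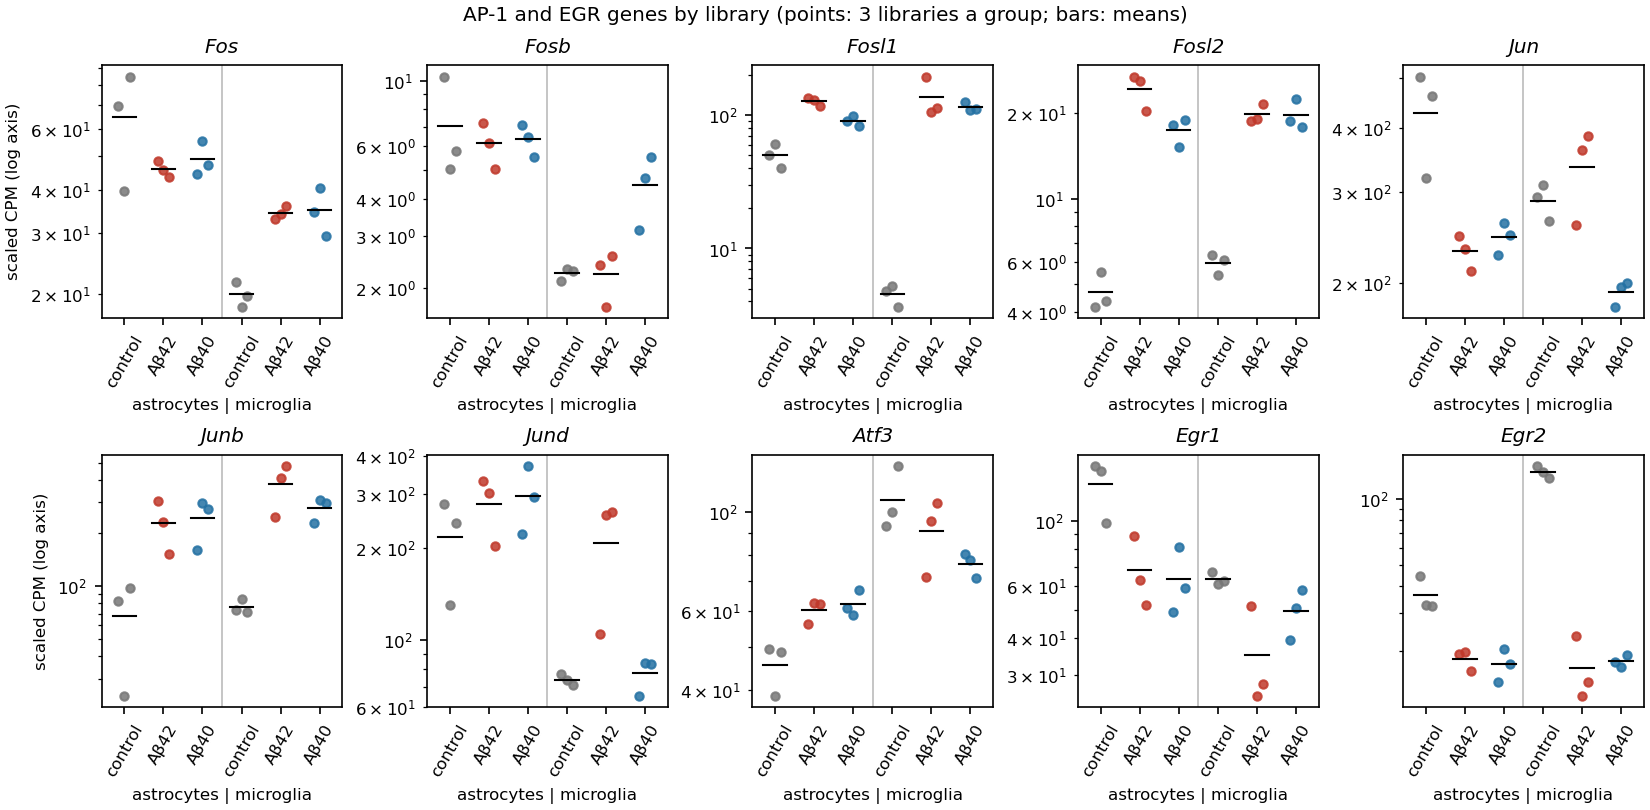
Scaled CPM of each of the 10 genes in all 18 libraries (points) on a log axis, with the mean of each group of 3 libraries as a bar, astrocytes left and microglia right of the grey line. Fosl1 in microglia went from 3.66 to 5.22 CPM in the controls to 106 to 195 CPM with Aβ42, and Egr2 from 126 to 142 CPM to 12.5 to 23.6 CPM.

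With Aβ42, 7 of the 10 genes passed the test in astrocytes (4 higher, 3 lower) and 7 in microglia (5 higher, 2 lower), by edgeR's quasi-likelihood test at an adjusted p under 0.05. Over all genes tested, 37.0% passed in astrocytes (16.5% higher, 20.4% lower) and 53.7% in microglia (27.1% higher, 26.6% lower). With Aβ40, 7 passed in astrocytes (4 higher, 3 lower) and 8 in microglia (5 higher, 3 lower), beside 33.3% (14.9% higher, 18.4% lower) and 41.0% (19.6% higher, 21.4% lower) of all genes. Fosl1, Fosl2 and Junb rose and Egr2 fell in all of these comparisons. The median size of the members' change with Aβ42, on the log2 scale and without sign, was 0.93 in astrocytes and 1.24 in microglia, where the median over all genes was 0.38 and 0.45. In astrocytes 7 members with Aβ42 and 7 with Aβ40 had treated libraries that did not overlap the controls, as did 45.7% and 43.2% of all genes. In microglia these were 7 and 9 members, beside 54.0% and 59.5% of all genes. Both fibril comparisons of a cell type share the same control libraries.

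**Figure D2:**
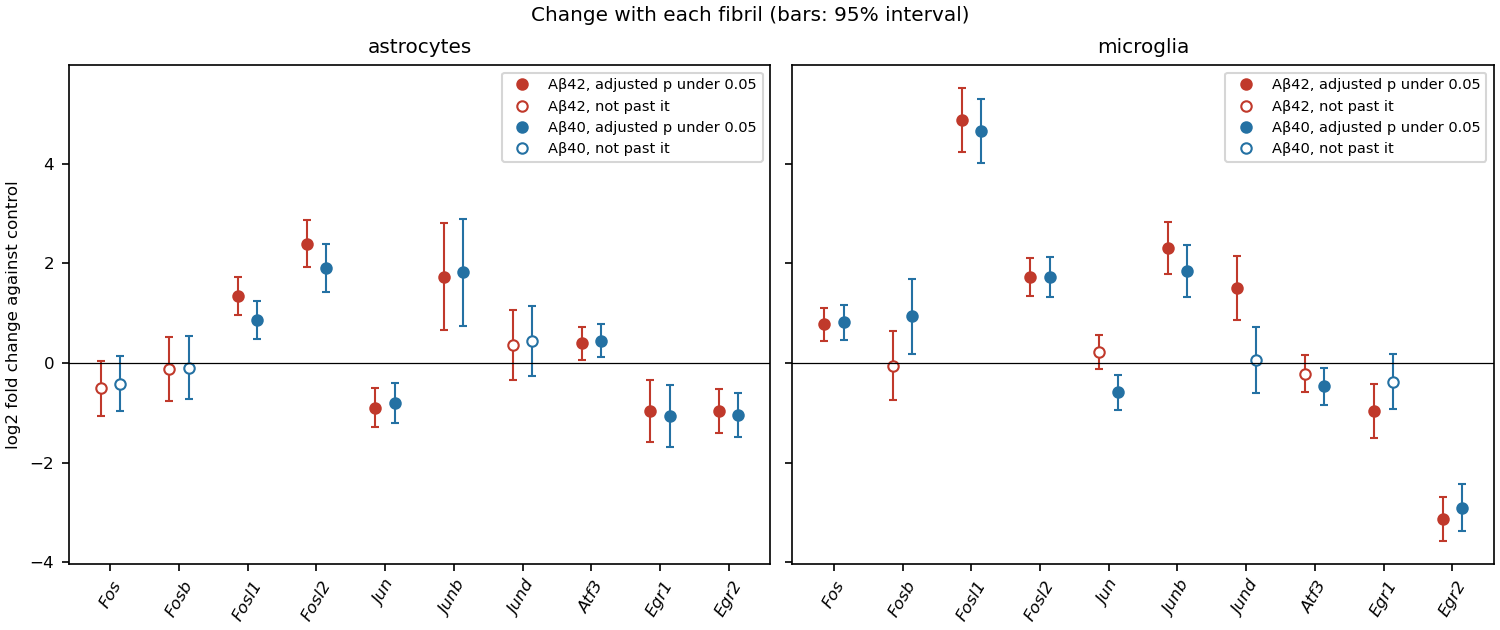
Fitted log2 fold change of each gene with Aβ42 (red) and Aβ40 (blue) fibrils against control in astrocytes (left) and microglia (right), with 95% intervals as bars, filled where the adjusted p is under 0.05. Fosl2 (2.40 in astrocytes) and Fosl1 (4.89 in microglia) had the highest values with Aβ42, and Egr2 in microglia the lowest (−3.13).

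The stretch of 250 bases before the transcription start was read for 7 of the 10 genes from RefSeq promoters of the rat assembly GRCr8, which is not the assembly the reads were aligned to. The promoters of Fosl1 and Junb, which rose in all 4 comparisons with control, and of Egr2, which fell in all 4, are shown 5′ to 3′ on the strand of the gene. Capitals mark the half-site CGTCA of the cAMP response element, read on either strand, and in Egr2 also the CArG box, the site of serum response factor.
Fosl1, chr1:212183635-212183884, plus strand: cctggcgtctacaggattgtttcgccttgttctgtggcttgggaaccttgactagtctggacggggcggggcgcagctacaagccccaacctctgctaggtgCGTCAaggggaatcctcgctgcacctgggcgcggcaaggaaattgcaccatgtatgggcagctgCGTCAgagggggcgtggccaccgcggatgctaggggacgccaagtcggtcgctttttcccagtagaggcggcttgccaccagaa
Junb, chr19:40080876-40081125, plus strand: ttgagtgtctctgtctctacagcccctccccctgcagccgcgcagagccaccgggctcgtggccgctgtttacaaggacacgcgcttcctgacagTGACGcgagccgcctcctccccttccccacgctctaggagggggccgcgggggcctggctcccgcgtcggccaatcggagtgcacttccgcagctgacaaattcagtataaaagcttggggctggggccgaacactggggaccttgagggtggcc
Egr2, chr20:21054442-21054691, minus strand: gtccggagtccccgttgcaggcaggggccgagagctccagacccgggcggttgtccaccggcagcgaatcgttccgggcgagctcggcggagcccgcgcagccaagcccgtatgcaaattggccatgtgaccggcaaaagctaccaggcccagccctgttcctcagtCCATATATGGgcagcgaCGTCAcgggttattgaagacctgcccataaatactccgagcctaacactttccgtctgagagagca

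Fosl1 held CGTCA 148 to 144 and 84 to 80 bases before its start, and Junb held it on the other strand 155 to 151 bases before. Egr2 and Egr1 held the same CArG box, CCATATATGG, 83 to 74 bases before the start and CGTCA 66 to 62 bases before it in both, and Egr1 held a second CArG box, CCATATTAGG, 105 to 96 bases before its start. On both strands, 5 of the 7 promoters held CGTCA, beside 19% of all 27457 promoters of that length, and 2 held a CArG box, beside 1.5%. The full element TGACGTCA, which contains CGTCA on each strand, was found in Jund alone (1.7% of all promoters), 221 to 214 bases before its start, and the EGR site GCGTGGGCG also in Jund alone (0.514%). The AP-1 site TGACTCA was in 0 of the 7 windows and in 3.98% of all promoters. The TATA sequence TATAAA was in 2 of the 7 and in 13.1% of all. These matches describe letters in the window and do not show that a factor binds there.

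Among the Fos family, Fosl1 had the largest change. Fosl1 encodes Fra-1, a partner of Jun proteins that lacks the strong activation domain of Fos. In microglia the untreated libraries held 4.83, 5.22 and 3.66 CPM of Fosl1, the Aβ42 libraries 195, 106 and 113 CPM and the Aβ40 libraries 125, 110 and 112 CPM. All treated libraries lay far above all controls, a rise of 29.6-fold with Aβ42 (log2 fold change 4.89 ± 0.26 SE, adjusted p = 1.87e-08) and 25.3-fold with Aβ40 (4.66 ± 0.26, adjusted p = 3.88e-08). The highest value was that of the Aβ42 library that stands apart, and without it the log2 fold change with Aβ42 was 4.58. By the study's threshold of 5-fold, Fosl1 was the sole member higher in microglia, beside 3.69% of all genes with Aβ42 and 3.36% with Aβ40. In astrocytes Fosl1 was at 50.7, 60.8 and 40.6 CPM in the controls, 136, 129 and 119 CPM with Aβ42 and 90.3, 99.6 and 83.8 CPM with Aβ40. Here too the groups did not overlap, with a rise of 2.54-fold with Aβ42 (1.35 ± 0.16, adjusted p = 6.07e-05) and 1.81-fold with Aβ40 (0.86 ± 0.16, adjusted p = 0.00155). In the microglia cultures the summed fibroblast markers moved with treatment, from 59.8 to 75.1 CPM in controls to 138 to 165 CPM with Aβ42 and 121 to 128 CPM with Aβ40, where 3 and 2 of the 5 tested markers were higher and 1 and 2 lower, and their part in the rise of Fosl1 was not tested.

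Fosl2, which encodes Fra-2, rose in both cell types. Its astrocyte libraries held 4.17, 5.51 and 4.36 CPM untreated, 26.8, 26.0 and 20.3 CPM with Aβ42 and 18.2, 15.2 and 18.9 CPM with Aβ40. The 3 groups did not overlap, and the rise was 5.28-fold with Aβ42 (2.40 ± 0.19, adjusted p = 3.40e-06) and 3.75-fold with Aβ40 (1.91 ± 0.19, adjusted p = 2.16e-05). With Aβ42 it was the sole member past 5-fold in astrocytes, where 3.03% of all genes were higher by that rule. In microglia Fosl2 went from 6.36, 5.41 and 6.10 CPM to 18.8, 19.1 and 21.6 CPM with Aβ42 and 18.8, 22.4 and 17.9 CPM with Aβ40. The treated groups overlapped each other and not the controls, and both rises were close to 3.3-fold, 3.33-fold with Aβ42 (1.73 ± 0.16, adjusted p = 1.87e-06) and 3.31-fold with Aβ40 (1.73 ± 0.17, adjusted p = 4.57e-06).

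Fos, the prototype of the family, moved differently in the cell types. In microglia it went from 21.7, 18.4 and 19.7 CPM to 32.8, 34.0 and 35.9 CPM with Aβ42 and 34.5, 40.5 and 29.4 CPM with Aβ40. No treated library overlapped the controls, and Fos rose 1.72-fold with Aβ42 (0.78 ± 0.14, adjusted p = 4.42e-04) and 1.76-fold with Aβ40 (0.82 ± 0.14, adjusted p = 5.73e-04). In astrocytes the controls held 69.9, 39.7 and 84.8 CPM, the Aβ42 libraries 48.5, 45.5 and 43.4 CPM and the Aβ40 libraries 44.4, 55.2 and 47.2 CPM. The lowest control was replicate 2, the library that stands apart, and the change did not pass the test with Aβ42 (−0.51 ± 0.23, adjusted p = 0.108) or Aβ40 (−0.42 ± 0.23, adjusted p = 0.193). Without that library Fos was lower with both fibrils, by −0.76 on the log2 scale with Aβ42 (adjusted p = 3.27e-04) and −0.66 with Aβ40 (adjusted p = 9.81e-04). For each fibril this was the only 1 of 13 alternatives in which Fos passed.

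Fosb, the fourth member, had the lowest counts. Its astrocyte libraries held 10.3, 5.03 and 5.77 CPM untreated, 7.21, 6.17 and 5.04 CPM with Aβ42 and 7.07, 6.47 and 5.51 CPM with Aβ40, so the 3 groups overlapped and neither change passed the test (adjusted p = 0.765 and 0.824). In microglia it was at 2.12, 2.32 and 2.29 CPM untreated, 2.40, 1.73 and 2.57 CPM with Aβ42 and 3.14, 4.70 and 5.52 CPM with Aβ40. Only the Aβ40 libraries stood above all controls, with a rise of 1.92-fold (0.94 ± 0.31, adjusted p = 0.0280), and with Aβ42 the log2 fold change was −0.05 ± 0.28 (adjusted p = 0.880). DESeq2 gave an adjusted p of 0.0506 for the rise with Aβ40, and it also missed the threshold without control replicate 1 or 3 or without Aβ40 replicate 2 or 3, with adjusted p-values from 0.0594 to 0.119.

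Junb had the largest rise of the Jun family. JunB is an AP-1 subunit that can replace Jun and restrain its activity. In microglia Junb went from 73.7, 84.8 and 71.4 CPM to 246, 407 and 479 CPM with Aβ42 and 229, 309 and 294 CPM with Aβ40. All treated libraries were above all controls, 4.96-fold with Aβ42 (2.31 ± 0.21, adjusted p = 2.48e-06) and 3.62-fold with Aβ40 (1.86 ± 0.21, adjusted p = 2.00e-05). Without Aβ42 replicate 1, its lowest Aβ42 library, the log2 fold change with Aβ42 was 2.53. In astrocytes the controls held 82.9, 23.9 and 97.3 CPM, the Aβ42 libraries 305, 230 and 151 CPM and the Aβ40 libraries 160, 296 and 272 CPM. No treated library overlapped the controls, and Junb rose 3.33-fold with Aβ42 (1.73 ± 0.44, adjusted p = 0.00987) and 3.53-fold with Aβ40 (1.82 ± 0.44, adjusted p = 0.00853). Control replicate 2 lay farther from the mean of the other controls for Junb than for 98.8% of all genes, and without that library the log2 fold changes were 1.34 and 1.43.

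Jun, the founding member of its family and a target of JNK kinases, fell in astrocytes. Its controls held 503, 320 and 462 CPM, the Aβ42 libraries 247, 233 and 211 CPM and the Aβ40 libraries 227, 262 and 248 CPM. No treated library reached the controls, 1.86-fold lower with Aβ42 (−0.89 ± 0.16, adjusted p = 0.00130) and 1.74-fold lower with Aβ40 (−0.80 ± 0.16, adjusted p = 0.00289). In microglia Jun was at 293, 310 and 264 CPM untreated, 259, 363 and 386 CPM with Aβ42 and 180, 196 and 200 CPM with Aβ40. The Aβ40 libraries lay below all controls, 1.51-fold lower (−0.59 ± 0.14, adjusted p = 0.00516), while the Aβ42 libraries lay on both sides of them (0.22 ± 0.14, adjusted p = 0.193). Without Aβ42 replicate 1, its lowest Aβ42 library, the log2 fold change of Jun with Aβ42 was 0.37 (adjusted p = 0.00127), the only 1 of 13 alternatives in which it passed.

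Jund, usually the most steadily expressed Jun gene, passed the test in 1 of the 4 comparisons with control. In microglia it was at 77.0, 73.8 and 70.9 CPM untreated, 104, 256 and 263 CPM with Aβ42 and 65.4, 84.1 and 83.2 CPM with Aβ40. It rose 2.86-fold with Aβ42 (1.51 ± 0.26, adjusted p = 4.62e-04), with replicate 1 lying closer to the controls than to the other Aβ42 libraries, while the Aβ40 libraries overlapped the controls (0.06 ± 0.27, adjusted p = 0.875). Without Aβ42 replicate 1, its lowest Aβ42 library, the log2 fold change of Jund with Aβ42 was 1.81 (adjusted p = 7.00e-11). In astrocytes the controls held 280, 130 and 242 CPM, the Aβ42 libraries 333, 304 and 202 CPM and the Aβ40 libraries 223, 372 and 294 CPM. These groups overlapped, and the log2 fold changes were 0.36 ± 0.29 with Aβ42 (adjusted p = 0.358) and 0.45 ± 0.29 with Aβ40 (adjusted p = 0.269), with 95% intervals from −0.34 to 1.07 and from −0.26 to 1.15. The lowest control was replicate 2, the library that stands apart. Leaving out 1 library gave values from 0.11 to 0.59 with Aβ42 and from 0.19 to 0.67 with Aβ40.

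Atf3, induced by many kinds of cell stress and known in myeloid cells as a brake on cytokine genes, had small changes that went up in astrocytes and down in microglia. In astrocytes its controls held 49.3, 38.8 and 48.6 CPM, the Aβ42 libraries 56.2, 62.6 and 62.2 CPM and the Aβ40 libraries 61.0, 58.8 and 66.9 CPM. The treated libraries were above all controls, 1.32-fold with Aβ42 (0.40 ± 0.14, adjusted p = 0.0384) and 1.36-fold with Aβ40 (0.45 ± 0.14, adjusted p = 0.0256). These calls did not hold when only the 2 compared groups were fitted (adjusted p = 0.101 and 0.0848), and that with Aβ42 was also lost with scaling by library totals (0.0654). They were also lost without any 1 of the Aβ42 libraries (0.0552 to 0.129) and without Aβ40 replicate 1 or 3 (0.0574 and 0.118). In microglia Atf3 was at 93.3, 100 and 127 CPM untreated, 71.6, 95.4 and 105 CPM with Aβ42 and 80.6, 78.3 and 71.2 CPM with Aβ40. It was 1.39-fold lower with Aβ40 (−0.47 ± 0.16, adjusted p = 0.0290), a call that was lost without control replicate 3 or any 1 of the Aβ40 libraries (adjusted p = 0.0618 to 0.162), and the Aβ42 libraries overlapped the controls (−0.22 ± 0.15, adjusted p = 0.242).

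Egr2, known in macrophages and microglia as a factor of differentiation, had the largest fall. Untreated microglia held 142, 134 and 126 CPM, the Aβ42 libraries 23.6, 12.5 and 14.4 CPM and the Aβ40 libraries 17.9, 17.0 and 19.3 CPM. The highest treated library was still far below the lowest control, and Egr2 was 8.77-fold lower with Aβ42 (−3.13 ± 0.18, adjusted p = 3.85e-08) and 7.48-fold lower with Aβ40 (−2.90 ± 0.19, adjusted p = 1.40e-07). Without Aβ42 replicate 1 the value with Aβ42 was −3.33. Summed microglia markers moved beside it in these cultures, from 8234 to 9471 CPM untreated to 2040 to 3259 CPM with Aβ42 and 2852 to 3481 CPM with Aβ40. Of the 11 markers, 9 and 10 were lower and 1 and 1 higher, with 1 marker at 0 in 1 library of each treated group, and their part in the fall of Egr2 was not tested. It was the sole member lower by 5-fold or more in microglia, beside 2.57% of all genes with Aβ42 and 2.47% with Aβ40. In astrocytes it went from 44.3, 32.6 and 32.4 CPM to 19.5, 19.8 and 16.2 CPM with Aβ42 and 14.4, 20.4 and 17.5 CPM with Aβ40. All treated libraries lay below all controls, 1.95-fold lower with Aβ42 (−0.96 ± 0.18, adjusted p = 0.00171) and 2.06-fold lower with Aβ40 (−1.04 ± 0.18, adjusted p = 0.00108). Summed microglia markers in the astrocyte cultures moved with this fall, from 438 to 529 CPM untreated to 163 to 176 CPM with Aβ42 and 140 to 154 CPM with Aβ40, with 9 and 10 of the 11 markers lower. Their part in the fall of Egr2, which was higher in untreated microglia, was not tested, and in such bulk RNA fewer cells of a type and less RNA per cell cannot be told apart.

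Egr1, the classic early response to serum and growth factors, fell in astrocytes and in microglia with Aβ42. Its astrocyte libraries held 154, 147 and 98.2 CPM untreated, 89.0, 63.2 and 51.9 CPM with Aβ42 and 49.2, 81.7 and 59.1 CPM with Aβ40. The treated libraries did not overlap the controls, although the lowest control came close to the highest Aβ42 library, and Egr1 was 1.94-fold lower with Aβ42 (−0.96 ± 0.25, adjusted p = 0.0121) and 2.09-fold lower with Aβ40 (−1.06 ± 0.25, adjusted p = 0.00769). In microglia it was at 67.3, 61.0 and 62.5 CPM untreated, 51.6, 25.5 and 28.0 CPM with Aβ42 and 39.3, 50.8 and 58.4 CPM with Aβ40. It was 1.95-fold lower with Aβ42 (−0.97 ± 0.22, adjusted p = 0.00332), and by −1.26 on the log2 scale without Aβ42 replicate 1 (adjusted p = 1.11e-07). All Aβ40 libraries were also below the controls, but the difference did not pass the test in the fit of all 9 libraries (−0.38 ± 0.23, adjusted p = 0.208), and passed it when control and Aβ40 libraries were fitted alone (adjusted p = 0.0152).

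**Figure D3:**
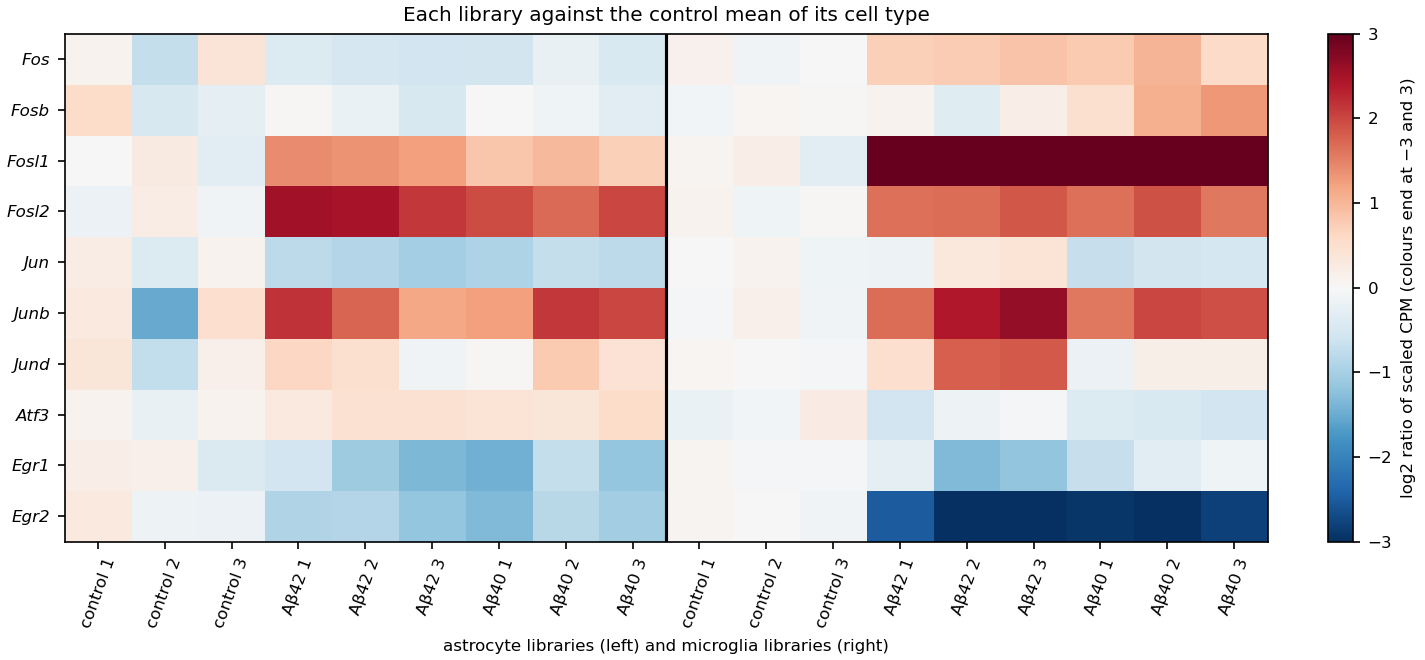
Log2 ratio of each library's scaled CPM to the control mean of its cell type, for the 10 genes (rows) in the 9 astrocyte libraries (left) and 9 microglia libraries (right), red higher and blue lower, with colours ending at −3 and 3. Astrocyte control 2 is blue for Junb, Jund and Fos, and microglia Aβ42 1 is paler than Aβ42 2 and 3 for Jund, Junb and Egr1.

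The direct comparison of the fibrils asked whether Aβ42 and Aβ40 act differently on the same cells. In astrocytes 0 of the 10 members passed the test, beside 0.0855% of all genes, and DESeq2 also called 0. With the Aβ42 and Aβ40 libraries fitted without the controls, Fosl1 passed (edgeR adjusted p = 0.0284). In the fit of all 9 libraries, Fosl1 and Fosl2 passed at an unadjusted p under 0.05, beside 6.30% of all genes. The Aβ42 libraries of both genes lay above all Aβ40 libraries (2 of 10 members did not overlap, beside 18.9% of all genes), by 0.49 ± 0.15 for Fosl1 (adjusted p = 0.378) and 0.49 ± 0.16 for Fosl2 (adjusted p = 0.415). The other 8 members had log2 differences from −0.10 to 0.10, and the 95% interval for Junb still reached from −1.12 to 0.95.

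In microglia 3 of the 10 members differed between the fibrils, beside 20.3% of all genes (11.3% higher with Aβ42, 9.01% lower), and the same 3 had no overlap between the groups, beside 29.3%. Jund was higher with Aβ42 by 1.45 ± 0.27 on the log2 scale (adjusted p = 0.0119) and Jun by 0.81 ± 0.14 (adjusted p = 0.00921), whereas Fosb was 1.99-fold lower with Aβ42 (95% interval of the log2 difference −1.70 to −0.29, adjusted p = 0.0356). Fosl1, Fosl2, Fos and Egr2 did not pass, with 95% intervals of −0.26 to 0.72, −0.35 to 0.36, −0.37 to 0.30 and −0.73 to 0.27. Depth moved with these values: Aβ42 replicates 2 and 3 held 22274367 and 17687416 counts, Aβ42 replicate 1 held 2613723 and the Aβ40 libraries held 2271834 to 4425805, and the part of depth was not tested. The controls, at 5098145 to 8249339 counts, had Jund levels of 70.9 to 77.0 CPM. The number of calls rested on single libraries. Without Aβ42 replicate 1 it was 7, beside 53.8% of all genes, with Junb (0.68, adjusted p = 1.73e-04), Egr1 (−0.86, adjusted p = 5.14e-05), Egr2 (−0.42, adjusted p = 0.0142) and Atf3 (0.37, adjusted p = 0.0133) added to the 3. In that fit Jund differed by 1.75 (adjusted p = 2.00e-08) and Jun by 0.96 (adjusted p = 6.91e-07). Dropping Aβ42 replicate 2 left 1 call, dropping Aβ42 replicate 3 left 0, and among the Aβ40 libraries dropping replicate 1 left 0 while dropping 2 or 3 left 1, beside 0.905% to 1.38% of all genes in these 5 fits. When the Aβ42 and Aβ40 libraries were fitted without the controls it was 0, beside 1.02% of all genes, with adjusted p-values from 0.0508 for Jun to 0.0842 for Fosb. The Fosb difference missed the threshold under 8 of 12 alternatives, DESeq2 (adjusted p = 0.0549) among them.

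The responses of the 2 cell types were compared in a fit of all 18 libraries on 11581 shared genes, as the log2 fold change in microglia minus that in astrocytes. Cell type cannot be told apart from the preparation of the cells. For Aβ42, 7 of the 10 members differed (4 higher in microglia, 3 lower), beside 37.3% of all genes (19.3% higher, 17.9% lower), and for Aβ40 4 differed (2 and 2), beside 32.5% (16.0% higher, 16.5% lower). Fosl1 had the largest difference, 3.53 ± 0.30 with Aβ42 (adjusted p = 3.18e-08) and 3.78 ± 0.30 with Aβ40 (adjusted p = 1.78e-08). Egr2 followed with −2.15 ± 0.26 (adjusted p = 3.11e-06) and −1.88 ± 0.27 (adjusted p = 2.22e-05). Fos differed by 1.29 ± 0.28 (adjusted p = 0.00115) and 1.22 ± 0.28 (adjusted p = 0.00254). For Jun the difference was 1.11 ± 0.23 with Aβ42 (adjusted p = 7.05e-04) and did not pass with Aβ40 (0.19 ± 0.23, adjusted p = 0.555).

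**Figure D4:**
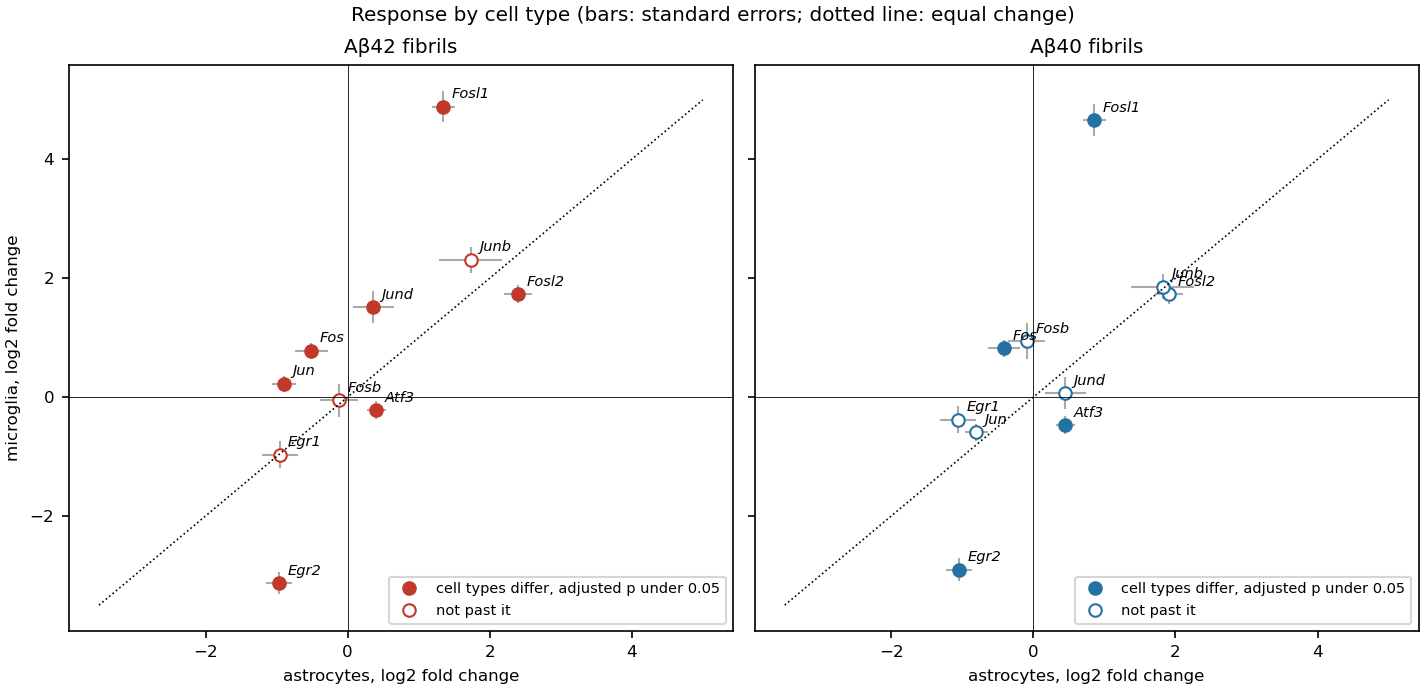
Log2 fold change against control in microglia (vertical axis) and astrocytes (horizontal axis) for the 10 genes, with Aβ42 (left) and Aβ40 (right), standard errors as bars, equal change as the dotted line and filled points where the cell types differ at an adjusted p under 0.05. Fosl1 lies far above the line (4.89 against 1.35 with Aβ42) and Egr2 far below it (−3.13 against −0.96).

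Atf3 differed by −0.63 ± 0.22 with Aβ42 (adjusted p = 0.0289) and −0.94 ± 0.22 with Aβ40 (adjusted p = 0.00268), its response being lower in microglia. Without both libraries that stand apart, the Aβ42 value of Atf3 was −0.39 (adjusted p = 0.0584) and that of Junb 1.21 (adjusted p = 0.00264), where all libraries gave 0.58 ± 0.51 (adjusted p = 0.399) for Junb. Jund (1.15 ± 0.42, adjusted p = 0.0392) and Fosl2 (−0.67 ± 0.25, adjusted p = 0.0428) also differed with Aβ42, and these calls missed the threshold under 10 and 14 of 19 alternatives, with adjusted p-values up to 0.112 and 0.131. Over the alternatives the difference ranged from 0.94 to 1.72 for Jund and from −0.78 to −0.58 for Fosl2. The lowest adjusted p-values among them were 4.55e-06 and 0.0206. Fosb and Egr1 did not differ at this threshold with either fibril (adjusted p = 0.914 and 0.993 with Aβ42, 0.0699 and 0.162 with Aβ40). Fosb with Aβ40 (1.02) passed under 6 of 18 alternatives, among them scaling by library totals (adjusted p = 0.0491).

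In the untreated cultures, also labelled 24 h, 8 of the 10 members differed between the cell types (3 higher in microglia, 5 lower), beside 68.8% of all genes (34.2% higher, 34.5% lower). With all 18 libraries scaled together, Fosl1 was at 5.08 ± 0.92 CPM (SD, n = 3) in untreated microglia and 47.4 ± 9.75 CPM in untreated astrocytes, 9.25-fold lower in microglia (log2 difference −3.21 ± 0.24 SE, edgeR adjusted p = 4.09e-10). Egr2 was 4.42-fold higher in microglia (2.14 ± 0.18, adjusted p = 3.52e-09), at 149 ± 9.82 CPM and 34.0 ± 6.55 CPM. Atf3 was 2.78-fold higher in microglia (1.48 ± 0.16, adjusted p = 8.84e-08) and Fosl2 1.55-fold higher (0.63 ± 0.20, adjusted p = 0.00985). Fos, Fosb, Jund and Egr1 were 2.75-fold, 2.52-fold, 2.47-fold and 1.75-fold lower in microglia, and Jun (−0.32 ± 0.16, adjusted p = 0.0866) and Junb (0.40 ± 0.37, adjusted p = 0.336) did not pass. Scaling by library totals alone moved the median of all genes to −0.28, and with it Fosl2 no longer passed (0.35, adjusted p = 0.148), while Jun did (−0.58, adjusted p = 0.00251). Jun passed under 7 of 13 alternatives, DESeq2 (adjusted p = 0.0427) among them. With Aβ42 and all 18 libraries scaled together, Fosl1 was at 154 ± 51.3 CPM in microglia and 121 ± 6.76 CPM in astrocytes. Egr2 was then at 18.8 ± 6.16 and 17.6 ± 1.71 CPM. With Aβ40, Fosl1 was at 128 ± 9.57 and 86.2 ± 7.06 CPM, and Egr2 at 20.0 ± 1.13 and 16.5 ± 2.60 CPM. These treated levels were not compared by a test.

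Genes around these factors were read from lists of partners, kinases and targets. Of 18 tested partner zipper factors in astrocytes, 7 were higher and 1 lower with Aβ42 and 8 and 2 with Aβ40, with a median log2 change of 0.45 with Aβ42 beside 0.00 over all genes. In microglia 10 of 19 were higher and 4 lower with Aβ42 and 9 and 2 with Aβ40. The shares called were 44.4% and 55.6% in astrocytes, beside 37.0% and 33.3% of all genes, and 73.7% and 57.9% in microglia, beside 53.7% and 41.0%. Maff, a small Maf protein without an activation domain, rose from 12.6 ± 4.06 CPM (SD, n = 3) to 104 ± 6.69 CPM with Aβ42 in astrocytes (3.08 ± 0.21 SE, edgeR adjusted p = 7.73e-07) and from 19.2 ± 1.59 to 247 ± 22.2 CPM in microglia (3.68 ± 0.12, adjusted p = 7.00e-10). Ddit3, a factor of endoplasmic reticulum stress, rose in astrocytes (2.12 ± 0.13, adjusted p = 3.96e-07), and Batf3, a Jun partner of immune cells, rose in microglia (2.99 ± 0.35, adjusted p = 2.03e-05). Maf fell in both cell types (−0.92 ± 0.18, adjusted p = 0.00227, and −1.11 ± 0.16, adjusted p = 1.27e-04).

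**Figure D5:**
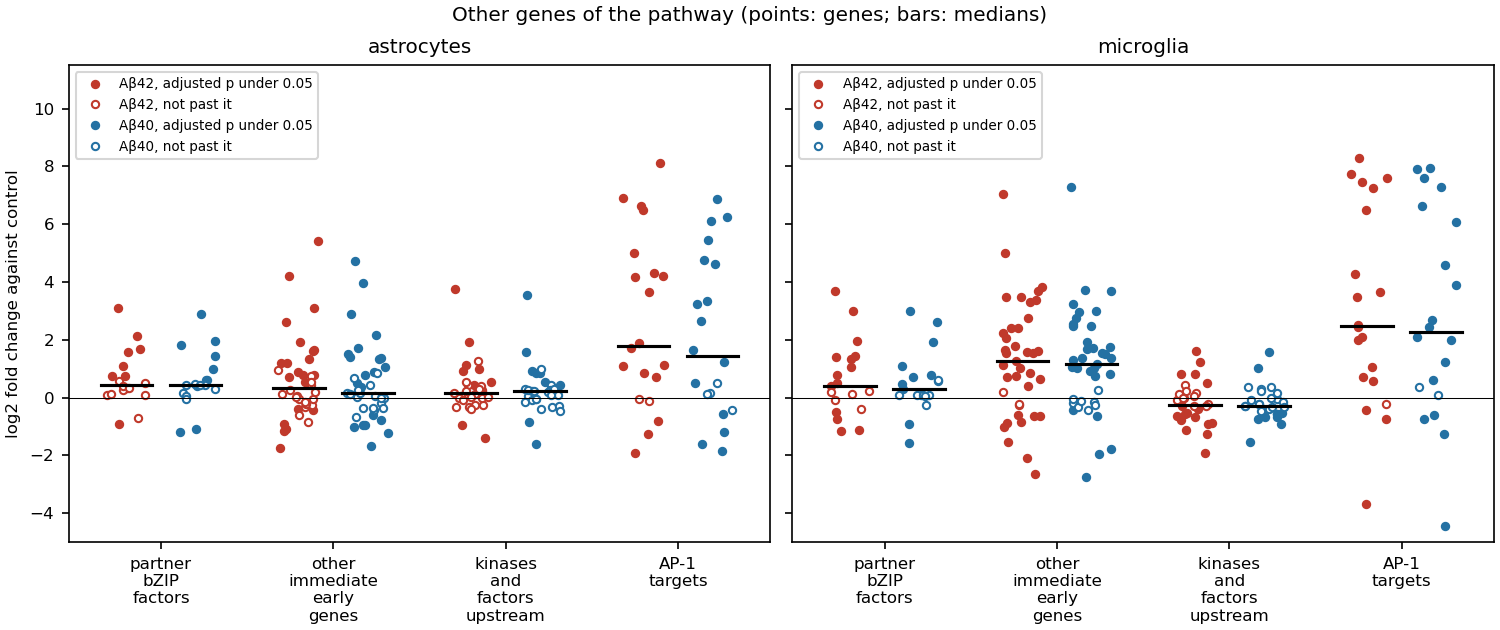
Log2 fold change against control of the genes of 4 lists (points), with Aβ42 in red and Aβ40 in blue, astrocytes left and microglia right, filled where the adjusted p is under 0.05, with list medians as bars. The medians of the AP-1 targets were 1.80 with Aβ42 in astrocytes and 2.47 in microglia, and that of the kinases in microglia was −0.25.

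Of the other immediate early genes, 15 of 38 were higher and 6 lower with Aβ42 in astrocytes, and 27 of 39 were higher and 9 lower in microglia. With Aβ40 the counts were 14 and 7 in astrocytes and 26 and 5 in microglia. With Aβ42 and Aβ40, 55.3% and 55.3% of this list passed in astrocytes (37.0% and 33.3% of all genes) and 92.3% and 79.5% in microglia (53.7% and 41.0%). The list medians with Aβ42 were 0.34 and 1.25 on the log2 scale. Ptgs2, the inducible cyclooxygenase, rose in the cultures of both cell types with Aβ42, by 5.41 ± 0.31 in astrocytes (adjusted p = 2.43e-07) and 7.05 ± 0.33 in microglia (adjusted p = 5.74e-09). Its astrocyte level went from 0.671 ± 0.384 to 24.3 ± 0.333 CPM (SD, n = 3), and its microglia level from 12.9 ± 2.97 to 1725 ± 756 CPM. The untreated astrocyte level was near the floor, since 3 counts equal 0.211 to 0.835 CPM there. Microglia markers in the Aβ42 astrocyte libraries were at 163 to 176 CPM, and their part in the astrocyte rise was not tested. Nfkbiz, a nuclear IκB protein, rose in astrocytes (4.19 ± 0.22, adjusted p = 1.38e-07) and Dusp2, a phosphatase of MAP kinases, in microglia (5.01 ± 0.42, adjusted p = 9.38e-07). Arc, a synaptic gene and target of Egr and serum response factors, fell in both (−1.73 ± 0.46, adjusted p = 0.0125, and −2.11 ± 0.24, adjusted p = 1.67e-05), as did Rgs2, a regulator of G protein signals (−1.15 ± 0.27, adjusted p = 0.00659, and −2.64 ± 0.12, adjusted p = 5.63e-09). For Arc the control and Aβ42 astrocyte libraries overlapped, at 14.1 ± 9.65 and 4.23 ± 0.813 CPM (SD, n = 3).

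Among kinases and factors upstream, 7 of 30 were higher and 2 lower in astrocytes with either fibril, whereas in microglia 5 of 28 were higher and 12 lower with Aβ42 and 2 and 9 with Aβ40. As shares called these were 30% with each fibril in astrocytes, below the 37.0% and 33.3% of all genes, and 60.7% and 39.3% in microglia, near the 53.7% and 41.0% of all genes. Map3k8, a kinase that feeds the ERK pathway, rose in astrocytes (3.75 ± 0.30, adjusted p = 3.13e-06) and microglia (1.24 ± 0.13, adjusted p = 5.21e-06) with Aβ42. Map2k4, which activates JNK, rose in astrocytes (1.93 ± 0.21, adjusted p = 3.52e-05), and Mapk13, a p38 kinase, rose in microglia (1.63 ± 0.16, adjusted p = 3.67e-06). Map2k6, which activates p38, fell in both (−1.39 ± 0.32, adjusted p = 0.00587, and −1.92 ± 0.15, adjusted p = 7.10e-07). Mapk10, a JNK gene, fell in astrocytes (−0.95 ± 0.14, adjusted p = 2.63e-04) and Map3k1 in microglia (−1.26 ± 0.13, adjusted p = 5.50e-06). mRNA levels of kinases say nothing of their activity.

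Of 20 genes known as AP-1 targets, 15 were higher and 3 lower with Aβ42 in astrocytes and 16 and 3 in microglia, and with Aβ40 12 and 4 and 14 and 4. In astrocytes 90% and 80% of them passed with Aβ42 and Aβ40, beside 37.0% and 33.3% of all genes, and in microglia 95% and 90%, beside 53.7% and 41.0%. Mmp9, a gelatinase, rose in astrocytes from 0.939 ± 0.202 CPM (SD, n = 3) to 116 ± 6.82 CPM with Aβ42 (6.92 ± 0.20 SE, edgeR adjusted p = 2.61e-09). Mmp3, stromelysin 1, was at 0.103 ± 0.123 CPM in untreated astrocytes, a level of at most 3 counts in a library, and at 28.8 ± 2.54 CPM with Aβ42, and in microglia it rose from 0.618 ± 0.151 to 191 ± 14.3 CPM (8.29 ± 0.28, adjusted p = 7.46e-10). Il6, a cytokine gene with an AP-1 site, rose in microglia (7.75 ± 0.36, adjusted p = 5.35e-09). Plau, the urokinase gene, is also listed as a target and fell in both cell types, in microglia from 1003 ± 70.7 to 77.1 ± 13.7 CPM with Aβ42 (−3.70 ± 0.15, adjusted p = 2.14e-09) and in astrocytes by −1.93 ± 0.18 on the log2 scale (adjusted p = 8.17e-06). Tgfb1 fell in astrocytes (−1.25 ± 0.13, adjusted p = 2.51e-05) and Spp1, osteopontin, in microglia (−0.73 ± 0.16, adjusted p = 0.00280). Of the co-repressors that bind Egr proteins, Nab1 rose with Aβ42 in astrocytes (0.99 ± 0.19, adjusted p = 0.00182) and microglia (0.50 ± 0.11, adjusted p = 0.00176), and Nab2 fell in microglia (−0.67 ± 0.12, adjusted p = 5.93e-04).

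The genes whose log2 CPM was most like that of Fosl2 over the 9 astrocyte libraries were Tle1 (Pearson r = 0.996), Irak2 (0.991) and Otud3 (0.991). For Fosl1 over the 9 microglia libraries they were Coq10b (0.999), Slc7a11 (0.999) and Orm1 (0.997). These correlations describe libraries that fall into control and treated groups and carry no test.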

How the data were processed

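RNA from 9 astrocyte and 9 microglia libraries was measured by stranded mRNA sequencing (TruSeq Stranded mRNA kit, paired reads of 150 cycles). Per the study's methods, the authors aligned reads with STAR to the rat assembly rn5, quantified genes with Salmon and produced gene counts with DESeq2 in the Illumina BaseSpace suite; the strand setting of the counting is not given in the sources used here. The deposited files hold whole-number counts per gene symbol, not normalized. Rows that name no gene (26.0% to 34.2% of reads in astrocytes, 21.7% to 24.5% in microglia) were left out.

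Counts were scaled by TMM and filtered by filterByExpr, and the 9 libraries of a cell type were fitted together without covariates with edgeR 4.0.16 (glmQLFit, glmQLFTest) and limma 3.58.1 in R 4.3.3. Differences between cell types came from a fit of all 18 libraries. P-values were adjusted by Benjamini-Hochberg over all genes tested, and a gene was called at an adjusted p under 0.05. Standard errors are the log2 fold change divided by the square root of F. The procedure was tested on simulated data. DESeq2 1.42.0, other scalings and filters, leaving out libraries and a replicate block were tried as alternatives. Samples with the same replicate number did not consistently deviate together. The members and all gene lists were chosen with earlier results of these data known. From each list, the 2 genes with the highest and the 2 with the lowest log2 fold change with Aβ42 among those called in a cell type were named, and all members. A gene that this rule takes is not reported here. For the member with the largest change, the 3 genes of highest Pearson r were named. Promoter sequences are from RefSeq (GRCr8), and intervals cover the spread between libraries only. The intervals used the residual degrees of freedom alone. The tests add prior degrees of freedom (4.66 in astrocytes, 5.84 in microglia), so the intervals are wider than the p-values beside them imply.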

Additional observations from a re-analysis of the deposited data

Results flagged for a closer look

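Of the 10 genes, 7 responded differently in the 2 cell types with Aβ42 and 4 with Aβ40, by the test of the difference itself (edgeR, log2 fold change in microglia minus that in astrocytes). With Aβ42 the differences were 3.53 for Fosl1 (adjusted p = 3.18e-08), 1.29 for Fos (0.00115), 1.15 for Jund (0.0392), 1.11 for Jun (7.05e-04), −0.63 for Atf3 (0.0289), −0.67 for Fosl2 (0.0428) and −2.15 for Egr2 (3.11e-06). With Aβ40 they were 3.78 for Fosl1 (adjusted p = 1.78e-08), 1.22 for Fos (0.00254), −0.94 for Atf3 (0.00268) and −1.88 for Egr2 (2.22e-05). Over all genes, 37.3% differed with Aβ42 and 32.5% with Aβ40. In untreated cells Fosl1 and Egr2 differed the other way, by −3.21 and 2.14 on the log2 scale. Their levels with Aβ42 lay closer together, at 154 CPM in microglia and 121 CPM in astrocytes for Fosl1. For Egr2 these were 18.8 and 17.6 CPM. The values for Jund, Fosl2 and Atf3 with Aβ42 lost the threshold under 10, 14 and 5 of 19 alternatives.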

How the results depend on the processing

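Across the alternatives, 125 of 147 counts of members called stayed within 1.5 times the reported count and 22 did not. Of 1284 values of single members, 1148 kept direction and side of the threshold, 68 lost it, 25 passed it and 43 changed sign, 0 of these among called members. Asking for 2-fold or more left 3 members with Aβ42 and 4 with Aβ40 in astrocytes, 4 with Aβ40 in microglia and 1 between the fibrils in microglia. At 5-fold, 1 with Aβ42 and 0 with Aβ40 remained in astrocytes, 2 and 2 in microglia, 0 between the fibrils there, and 1 each in the 3 comparisons of cell types. With the compared groups fitted alone, the fibrils differed for 1 member in astrocytes (Fosl1, adjusted p = 0.0284) and 0 in microglia. Without 1 library there were 0 to 7 calls between the fibrils in microglia and 4 to 8 in the difference in response to Aβ42. Leaving out 1 library also turned the sign of small, uncalled changes. Fosb ranged from −0.28 to 0.19 with Aβ42 and −0.26 to 0.21 with Aβ40 in astrocytes, −0.26 to 0.18 with Aβ42 in microglia, and −0.18 to 0.30 in the difference of cell types with Aβ42, and Jund from −0.0070 to 0.18 with Aβ40 in microglia. Between the fibrils in astrocytes the ranges were −0.087 to 0.017 for Atf3, −0.13 to 0.33 for Egr1, −0.16 to 0.080 for Fosb, −0.34 to 0.14 for Junb, −0.25 to 0.11 for Jund and −0.035 to 0.21 for Egr2, and in microglia −0.082 to 0.39 for Fosl1, −0.065 to 0.12 for Fosl2 and −0.13 to 0.090 for Fos. In the difference of cell types they were −0.28 to 0.24 for Egr1 with Aβ42 and −0.35 to 0.41 for Junb with Aβ40. Other values that changed sign were, without a filter, Egr1 (−0.0028) with Aβ42 and Junb (−0.0092) with Aβ40 in the difference of cell types, and, without the libraries that stand apart (an alternative chosen after seeing the data), Egr1 with Aβ42 (−0.39). The cause was not tested.

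Replicate numbers did not pair the samples: same-numbered libraries correlated at −0.64 to 0.44 in astrocytes and −0.22 to 0.26 in microglia, above 0.1 in 2 and 1 of 9 pairs. Some differently numbered astrocyte libraries did deviate together. Control 2 correlated with Aβ42 3 (0.62) and Aβ40 1 (0.57), and Aβ42 3 with Aβ40 1 (0.62). Other such pairs reached down to −0.57 (Aβ42 3 with Aβ40 2). Control 2, Aβ42 3 and Aβ40 1 held the lowest Junb (23.9, 151 and 160 CPM) and Jund (130, 202 and 223 CPM) of their groups. The part of this shared deviation was not tested. The replicate block gave 6 calls with each fibril in astrocytes, 7 with Aβ42 and 8 with Aβ40 in microglia, 2 between the fibrils in microglia, and 5 in each difference of responses, and it turned the sign of Fosl2 between the fibrils in microglia (−0.0012) and of Junb in the difference with Aβ40 (−0.085). With the block Atf3 was lost in astrocytes with Aβ42 and Aβ40 (adjusted p = 0.0763 and 0.0590), as were Fosb between the fibrils in microglia (0.0530), Fosl2 and Jund in the difference with Aβ42 (0.0979 and 0.0824) and Fosl2 between untreated cell types (0.130), while Jun between untreated cell types (0.0407) and Fosb in the difference with Aβ40 (0.0467) passed. Depth limits Fosb most, which fell to 6 counts in a library.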
